A study of Mus musculus with 26 samples.

Results

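Claudins are small membrane proteins with 4 passes through the membrane, and their strands form the tight junction between neighbouring cells. The 10 members described here, Cldn1, Cldn2, Cldn3, Cldn4, Cldn5, Cldn6, Cldn7, Cldn8, Cldn11 and Cldn12, were taken as all array probes that measure a gene of 1 of these names, 11 probes in all, among 26647 genes measured. The rule uses gene names, and the family was picked with earlier results of these data known. The samples were non-parenchymal liver cells, which are the cells of the liver other than hepatocytes, from Foxl1-Cre; RosaYFP mice aged 6 to 10 weeks. In every group the mice carried both alleles: a Cre recombinase under the control of Foxl1, and a Rosa26 reporter that expresses the yellow fluorescent protein YFP in cells with a history of that recombinase and in their descendants. Cells that were CD45-negative (without the leukocyte surface protein CD45) were sorted into YFP-positive and YFP-negative fractions after 3, 7 or 14 days on a diet with DDC, a toxin that injures bile ducts and evokes a ductular reaction. Day 0 was total non-parenchymal cells of chow-fed mice, with no YFP sort, so sorting and diet cannot be told apart in any comparison with day 0. Arrays were analysed for 2 day 0 samples, for 3, 3 and 3 YFP-negative samples and for 4, 3 and 2 YFP-positive samples at days 3, 7 and 14, which is 20 of the 26 samples of the series. The labels do not say whether a sample was 1 animal or a pool, so p-values measure the spread between these samples.

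In a healthy liver, tight junctions seal the bile canaliculus between hepatocytes and line the bile duct, where they keep bile apart from blood. Sealing claudins (Cldn1, Cldn3, Cldn4, Cldn5, Cldn7, Cldn8 and Cldn11) restrict passage between cells, whereas Cldn2 forms a pore for small cations and water. Cldn5 is the claudin of endothelial cells. The set of claudins a cell makes is one feature that separates bile duct epithelium, hepatocytes and endothelium.

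Levels are given as the log2 processed signal after subtraction of the same array's 75th percentile, so that 0 is the level of a probe at that percentile and 1 unit is a doubling. The levels of different probes have no common scale and are not set against each other. All 10 main probes were well above background on 20 of 20 arrays, except that of Cldn8 with 18, and none was saturated. The probes are 60 bases long, and no claudin probe shared a run of more than 9 bases with any of the 23 claudin probes on the array. The Cldn7 probe is shown because the call described below rests on it. It lies on chromosome 11 at chr11:69780780-69781089 of the mm9 build, plus strand, an interval of 310 bases, so its 60 bases do not map as 1 block. An annotation of that build was not used here, and exon or UTR positions are not given.
Cldn7 probe: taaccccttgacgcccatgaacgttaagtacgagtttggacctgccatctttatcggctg

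The stretch of 250 bases before the start site is printed for Cldn2, Cldn6 and Cldn4, because Cldn2 and Cldn6 varied together with Cldn7 across arrays and Cldn4 less closely. The sequences are RefSeq's on GRCm38.p6, where 9 of the 10 members have a window of 250 bases before to 50 after a start site. Searched on both strands were TATAAA, the TGACTCA heptamer of AP-1, the CACCTG E-box bound by Snail and Zeb repressors and AACCGGTT of Grainyhead factors, with no overlap between the motifs in the windows shown, and capitals mark the matches.
Cldn2, chrX:139800558-139800807, plus strand: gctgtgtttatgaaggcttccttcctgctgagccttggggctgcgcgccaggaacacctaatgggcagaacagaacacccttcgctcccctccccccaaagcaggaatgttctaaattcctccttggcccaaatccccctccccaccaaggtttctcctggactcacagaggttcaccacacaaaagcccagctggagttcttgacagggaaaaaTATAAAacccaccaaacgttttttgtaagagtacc
Cldn6, chr17:23679115-23679364, plus strand: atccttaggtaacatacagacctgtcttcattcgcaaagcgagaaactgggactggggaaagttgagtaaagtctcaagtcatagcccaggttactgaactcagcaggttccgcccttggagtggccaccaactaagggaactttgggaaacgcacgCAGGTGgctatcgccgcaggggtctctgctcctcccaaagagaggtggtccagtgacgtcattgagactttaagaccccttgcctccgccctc
Cldn4, chr5:134946935-134947184, minus strand: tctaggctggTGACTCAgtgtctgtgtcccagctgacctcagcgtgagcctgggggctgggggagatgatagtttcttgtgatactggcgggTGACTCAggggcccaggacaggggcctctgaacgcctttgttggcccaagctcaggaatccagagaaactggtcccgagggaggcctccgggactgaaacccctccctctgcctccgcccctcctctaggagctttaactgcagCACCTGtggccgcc
The Cldn2 stretch holds TATAAA at position -35, counted from the start site, a motif in 13.6% of all 32851 promoter windows. In Cldn4 the heptamer TGACTCA occurs at -240 and -158, where 5.2% of windows hold it at least 1 time and 0.222% at least 2 times. CACCTG (20.2% of windows) was found in the windows of Cldn3, Cldn4, Cldn6 and Cldn7. AACCGGTT (0.146%) was in none of the 12 windows of the members. These are matches of letters, not sites of binding.

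The labelled fractions were checked against marker genes before the claudins were read. The mean level of 15 biliary markers, with all 15 well above background on every array, lay between 0.16 and 3.77 on YFP-positive arrays, between -1.05 and 1.97 on YFP-negative arrays and at 0.46 and 1.30 at day 0. YFP-positive day 3 array 3 stood apart from its group with 0.16, where the other 3 arrays had 2.32 to 3.77, and YFP-negative day 3 array 3 and day 14 array 3 were the highest of their fraction, with 1.56 and 1.97. Of 12 stellate and mesenchymal markers, 6 were lower in YFP-positive cells over the mean of days (limma, adjusted p under 0.05, background below) and their mean ran from -3.03 to 1.50 against 1.31 to 3.03 in YFP-negative cells. By the same test 1 of the 15 biliary markers was higher (median difference 2.46). No endothelial, hepatocyte or mesothelial marker passed. Of these lists 0 of 12, 3 of 11 and 3 of 6 markers were above 0 (52.9% of all genes), with medians of -0.72, -0.80 and -0.56. At day 7 alone 0 of 11 hepatocyte markers were above 0 (median -2.13, 49.4% of all genes). Hepatocyte genes were present despite the non-parenchymal label, with 9 to 11 of 11 markers well above background on each array, and so were 6 to 8 of 8 leukocyte genes. Ptprc, which encodes CD45, ran from -7.51 (YFP-positive day 3 array 4, not well above background) to 4.45 (YFP-negative day 7 array 3). The mean of 10 macrophage markers ran from -2.22 to 3.88. From day 3 to day 14, 0 of these 10 rose in either fraction. Their median change was -2.20 in YFP-positive and -3.07 in YFP-negative cells, and none passed. The part of these differences in the results below was not tested. In such bulk samples, fewer cells of a type and less RNA per cell cannot be told apart.

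The first question was how claudins differ between YFP-positive and YFP-negative cells during the injury. Averaged over days 3, 7 and 14, 1 of the 10 members passed, with 0.63% of all genes called in this comparison. That was Cldn7, a claudin of the lateral membrane that binds EpCAM, and it was higher in YFP-positive cells. Differences of 2.71 to 3.51 for Cldn2, Cldn3, Cldn4, Cldn6 and Cldn8 did not pass, and those of Cldn1, Cldn5, Cldn11 and Cldn12 were small. In all, 8 of 10 members were above 0, against 52.9% of all genes, and the members' median difference was 2.93 against 0.05 over all genes. At an unadjusted p under 0.05 stood 6 members, against 21.4% of all genes. Over all days together the arrays of the fractions overlapped for each member, and did not for 0.0114% of genes higher and 0.0417% lower in YFP-positive cells. All p-values come from limma's moderated test with Benjamini-Hochberg adjustment over 26647 genes, and differences are log2 values ± SE.

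Cldn7 had levels of -0.54 and -1.07 on the day 0 arrays. On YFP-negative arrays it measured -3.40, 0.21 and -1.78 at day 3, -0.48, -1.38 and -3.80 at day 7, and -2.61, -1.39 and 0.97 at day 14. On YFP-positive arrays it measured 2.13, 2.19, -1.38 and 3.30 at day 3, 3.27, 1.30 and 1.57 at day 7, and 2.49 and 2.37 at day 14. Every YFP-positive array other than day 3 array 3 was above every YFP-negative and day 0 array. Over the mean of days Cldn7 was higher by 3.53 ± 0.73 (11.5-fold, 95% confidence interval 1.98 to 5.08, adjusted p = 0.0386). The difference by day was 3.21 ± 1.16 at day 3 (adjusted p = 0.597), 3.93 ± 1.24 at day 7 (adjusted p = 0.668) and 3.44 ± 1.38 at day 14 (adjusted p = 0.37). None of the days passed alone, and the 3 values lie within 1 SE of each other. Without YFP-positive day 3 array 3, low in biliary transcripts, the mean difference was 3.85 ± 0.63 (adjusted p = 0.00871). This array was the lowest of its group for Cldn7, Cldn2, Cldn3, Cldn4, Cldn6 and Cldn8. Leaving it out therefore had to raise their differences, here and below, and passing without it is no separate support. The call for Cldn7 was lost in 16 of the 20 fits that leave out 1 array, with differences from 3.21 to 3.86 and adjusted p from 0.00871 to 0.084. It was kept without YFP-positive day 3 array 3 or day 7 array 3, or YFP-negative day 3 array 3 or day 14 array 3. The labels name no slide, and slides were told apart by the barcode in the names of the deposited scanner outputs. Arrays on the same slide, 1 minus 1, differed by 5.53 at day 3, and by 1.78 and 5.37 at day 7. At day 14 the fractions shared no slide, with YFP-positive arrays on slides 1 and 2 and YFP-negative arrays on slides 4, 6 and 7. Fraction and slide therefore cannot be told apart at day 14, for any gene. Slides 2, 3 and 5 held no YFP-negative array of any day, and slide 6 held no YFP-positive array.

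**Figure D1:**
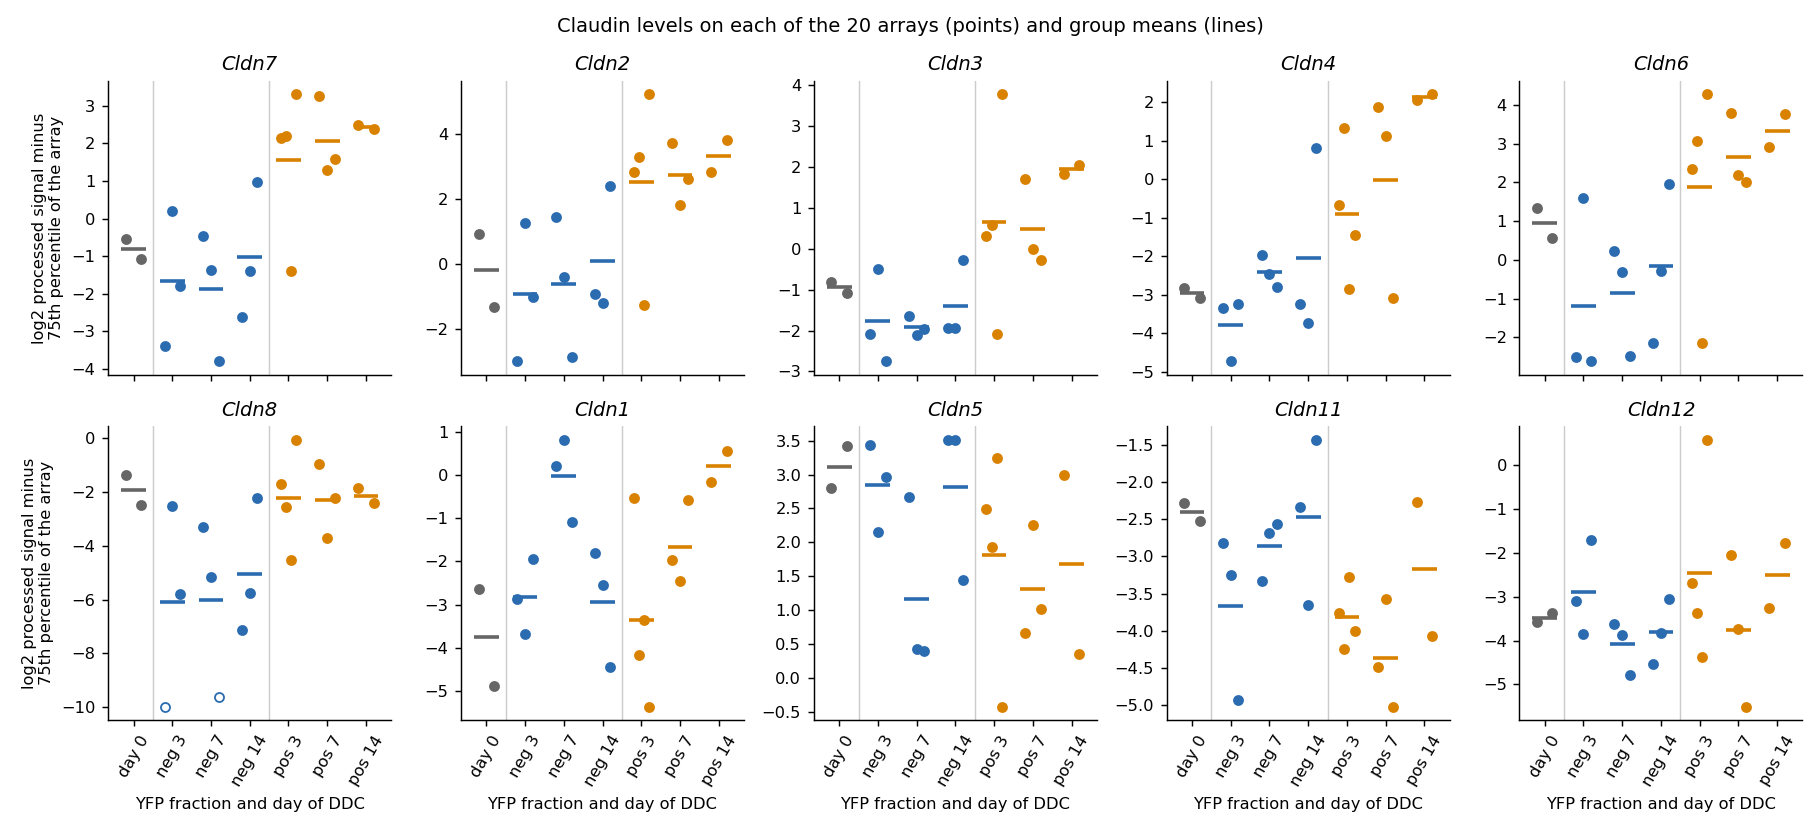
Levels of the 10 claudins (log2 signal relative to the 75th percentile of its array) on each of the 20 arrays, by YFP fraction (neg, pos) and day of DDC. Points are arrays, open where the probe was not well above background, and lines are group means. In the upper row, Cldn7 at days 7 and 14 lies between 1.30 and 3.27 on YFP-positive arrays, while 1 of the 4 day 3 arrays lies at -1.38.

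Cldn2, the pore-forming claudin, was likewise lowest among YFP-positive arrays on day 3 array 3. Its levels were 0.93 and -1.33 at day 0, and -3.02, 1.27 and -1.02, then 1.46, -0.41 and -2.89, then -0.93, -1.21 and 2.40 on YFP-negative arrays of days 3, 7 and 14. YFP-positive arrays had 2.83, 3.29, -1.27 and 5.23 at day 3, 3.73, 1.82 and 2.63 at day 7, and 2.82 and 3.82 at day 14. The fractions overlapped at day 3 and did not at days 7 and 14. The difference of 3.34 ± 0.91 over the mean of days (10.1-fold) did not pass (adjusted p = 0.0794), and the values by day were 3.44 ± 1.45, 3.34 ± 1.55 and 3.23 ± 1.74 (adjusted p = 0.597, 0.925 and 0.46). Without YFP-positive day 3 array 3 it was 3.76 ± 0.78 and passed (adjusted p = 0.0188), whereas in the other 19 fits that leave out 1 array it did not, with adjusted p up to 0.186. Within slides the differences were 5.84, 0.36 and 5.52.

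Cldn6, a claudin of embryonic epithelia that most adult tissues lack, measured 1.34 and 0.57 at day 0. Its YFP-negative levels were -2.52, 1.58 and -2.62 at day 3, 0.22, -0.33 and -2.49 at day 7, and -2.14, -0.30 and 1.97 at day 14. Its YFP-positive levels were 2.35, 3.06, -2.14 and 4.27, then 3.79, 2.19 and 2.01, then 2.91 and 3.76. All YFP-positive arrays of days 7 and 14 were above all day 0 and YFP-negative arrays. The mean difference was 3.36 ± 0.88 (10.3-fold, adjusted p = 0.0731), with 3.07 ± 1.40 at day 3, 3.52 ± 1.50 at day 7 and 3.49 ± 1.67 at day 14 (adjusted p = 0.597, 0.854 and 0.417). It passed without YFP-positive day 3 array 3 (3.81 ± 0.71, adjusted p = 0.0135), and fits that leave out 1 array had adjusted p up to 0.166. Cldn6 lies next to Cldn9 in the gene order, and Cldn9 differed by 1.59 ± 0.38 (adjusted p = 0.0596).

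Cldn3 and Cldn4 are neighbouring genes on chromosome 5, and their proteins are both receptors for the enterotoxin of Clostridium perfringens. Cldn3 had -0.82 and -1.08 at day 0, and -2.08, -0.50 and -2.75, then -1.64, -2.12 and -1.97, then -1.95, -1.94 and -0.29 in YFP-negative cells at days 3, 7 and 14. In YFP-positive cells it had 0.31, 0.59, -2.09 and 3.76, then 1.69, -0.01 and -0.27, then 1.82 and 2.05. No day 7 or day 14 array of the YFP-positive fraction was as low as any YFP-negative array of its day. Its mean difference was 2.71 ± 0.62 (6.54-fold, adjusted p = 0.0556), made of 2.42 ± 0.99, 2.38 ± 1.05 and 3.33 ± 1.18 by day (adjusted p = 0.597, 0.886 and 0.349). It reached 3.01 ± 0.51 without YFP-positive day 3 array 3 (adjusted p = 0.00961), and fits that leave out 1 array had adjusted p up to 0.12. Within slides it was 2.40, 1.62 and 1.70.

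Cldn4 varied in another way. Its levels were -2.82 and -3.09 at day 0, with -3.34, -4.73 and -3.24, then -1.97, -2.46 and -2.79, then -3.23, -3.74 and 0.82 in YFP-negative cells. In YFP-positive cells they were -0.66, 1.33, -2.84 and -1.44 at day 3, 1.87, 1.13 and -3.08 at day 7, and 2.07 and 2.20 at day 14. YFP-positive day 3 array 4, highest of all in biliary mean, was low for Cldn4, and so was day 7 array 4. The mean difference was 3.14 ± 0.77 (8.84-fold, adjusted p = 0.0642), with 2.87 ± 1.22 at day 3, 2.38 ± 1.30 at day 7 and 4.19 ± 1.45 at day 14 (adjusted p = 0.597, 1 and 0.349). Without YFP-positive day 3 array 3 it was 3.36 ± 0.75 and passed (adjusted p = 0.0263); fits that leave out 1 array had adjusted p up to 0.132. With the slide as fixed block it was 1.90 ± 1.24 (adjusted p = 0.754). The within-slide differences were 2.68, 3.09 and -0.29, the last from slide 7 at day 7.

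Cldn8, which in the distal nephron pairs with Cldn4, was at -1.36 and -2.47 at day 0. YFP-negative levels were -9.99, -2.52 and -5.78 at day 3, -3.29, -5.15 and -9.64 at day 7, and -7.12, -5.76 and -2.23 at day 14. Of these, -9.99 and -9.64 were not well above background, so 2 of 3 arrays measured Cldn8 at each of days 3 and 7. YFP-positive levels were -1.71, -2.54, -4.53 and -0.05, then -0.94, -3.71 and -2.22, then -1.86 and -2.40. YFP-positive and day 0 levels overlapped, and 3 YFP-negative arrays (day 3 array 3, day 7 array 1 and day 14 array 3) fell within the YFP-positive range. The difference of 3.51 ± 1.09 did not pass (adjusted p = 0.102). It rests in part on the 2 arrays below background and was 1.68 ± 0.61 with normexp background correction (adjusted p = 0.287). The differences by day did not pass either, 3.89 ± 1.73, 3.73 ± 1.85 and 2.91 ± 2.06 (adjusted p = 0.597, 0.978 and 0.586). It did not pass without YFP-positive day 3 array 3 either (adjusted p = 0.0606). Its within-slide values of 8.27 and 7.41 rest on the dim arrays, and that of slide 4 was -0.42.

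**Figure D2:**
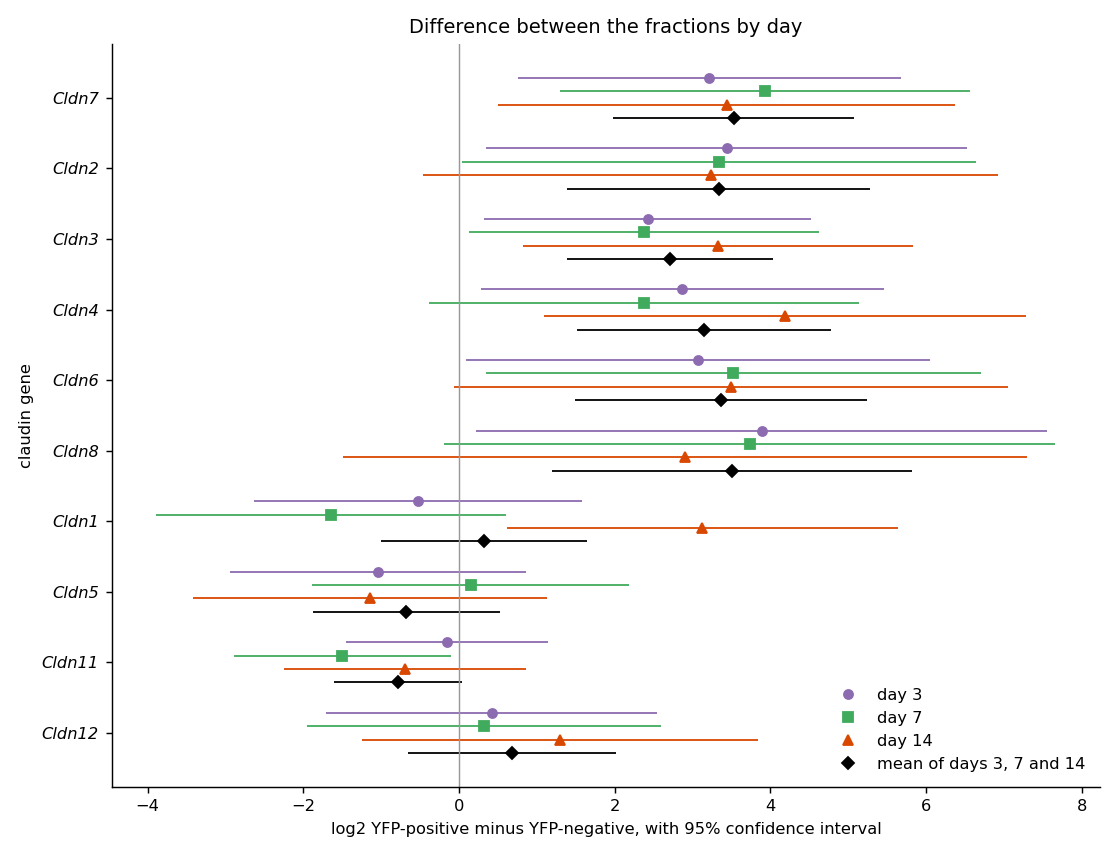
Differences between YFP-positive and YFP-negative cells (log2, x axis) for each claudin at days 3, 7 and 14 and over their mean, with 95% confidence intervals from limma. The intervals of the mean of days for Cldn7, Cldn2, Cldn3, Cldn4, Cldn6 and Cldn8 lie above 0, and only Cldn7 passed after adjustment over all genes; those of the other 4 include 0.

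At single days no member passed. The background of calls was 0% of genes at day 3, 0% at day 7 and 0.0225% at day 14. At an unadjusted p under 0.05 stood 6, 5 and 4 of the 10 members at days 3, 7 and 14, against 7.87%, 5.35% and 12.2% of all genes. Arrays of the fractions did not overlap at day 3 for Cldn4 only, which was higher in YFP-positive cells, as 3.8% of genes were. At day 7 they did not overlap for Cldn2, Cldn3, Cldn6 and Cldn7, higher in YFP-positive cells (background 4.19%), and for Cldn11, lower (background 5.25%). At day 14, with 2 arrays against 3 and no shared slide, 6 members were higher without overlap (background 20%). The difference was above 0 at all 3 days for 7 members (Cldn2, Cldn3, Cldn4, Cldn6, Cldn7, Cldn8 and Cldn12), against 27.9% of all genes.

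Cldn1, a sealing claudin whose loss in people gives ichthyosis with sclerosing cholangitis, had its highest group mean at YFP-positive day 14, with YFP-negative day 7 next. Day 0 levels were -2.63 and -4.87, and YFP-negative levels were -2.86, -3.69 and -1.94 at day 3, 0.20, 0.81 and -1.09 at day 7, and -1.80, -2.54 and -4.45 at day 14. YFP-positive levels were -0.54, -4.17, -3.36 and -5.36 at day 3, -1.96, -2.45 and -0.58 at day 7, and -0.16 and 0.55 at day 14. The YFP-negative arrays were highest at day 7, and the YFP-positive arrays of day 14 were above all others of that fraction. The difference between the fractions was -0.53 ± 0.99 at day 3, -1.64 ± 1.06 at day 7 and 3.13 ± 1.18 at day 14 (adjusted p = 0.847, 1 and 0.357), with a mean of 0.32 ± 0.62 (adjusted p = 0.797). The change from day 3 to day 14 differed between the fractions by 3.65 ± 1.54, which did not pass (unadjusted p = 0.0311, adjusted p = 1). A further Cldn1 probe was dimmer, well above background on 11 of 20 arrays and on neither day 0 array. Averaging both probes turned the mean difference to -0.47 and that of day 3 to 0.64, and lowered that of day 14 to 0.84 and the between-fraction change to 0.19. Across 9 arrays each, the correlation of the brighter Cldn1 probe with the hepatocyte marker mean was 0.83 in YFP-negative and 0.50 in YFP-positive cells. In YFP-positive cells Cldn5 had a higher value (0.63).

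Cldn5, the endothelial claudin, ran from 0.40 to 3.51 on YFP-negative arrays (median 2.68), from -0.43 to 3.25 on YFP-positive arrays (median 1.93) and stood at 2.80 and 3.42 at day 0. The fractions overlapped at each day. Differences of -1.04 ± 0.89, 0.15 ± 0.96 and -1.15 ± 1.07 at days 3, 7 and 14 (adjusted p = 0.668, 1 and 0.692) gave a mean of -0.68 ± 0.56 (adjusted p = 0.506). The 12 endothelial markers, all well above background on every array, moved with it, with correlations of 0.96 in YFP-negative and 0.88 in YFP-positive cells. Cldn11, known from myelin and Sertoli cells, ran from -4.93 to -1.43 in YFP-negative and from -5.02 to -2.26 in YFP-positive cells. Its differences were -0.15 ± 0.61, -1.50 ± 0.65 and -0.69 ± 0.73 by day (adjusted p = 0.931, 0.873 and 0.736) and -0.78 ± 0.38 in the mean (adjusted p = 0.256). Cldn12, which lacks the PDZ-binding end of most claudins, ran from -4.77 to -1.72 and from -5.51 to 0.57. Its differences were 0.42 ± 0.999, 0.33 ± 1.07 and 1.30 ± 1.19 by day (adjusted p = 0.88, 1 and 0.686) and 0.68 ± 0.63 in the mean (adjusted p = 0.553). For these 3 genes the intervals of the mean difference were -1.88 to 0.52, -1.60 to 0.04 and -0.66 to 2.02, so differences of either sign or near 0 remain possible.

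Group means put YFP-positive day 14 first for Cldn1, Cldn2, Cldn3, Cldn4, Cldn6 and Cldn7. For Cldn7 the order was 2.43 ± 0.08 (SD, n = 2) at YFP-positive day 14, 2.05 ± 1.07 (n = 3) at day 7 and 1.56 ± 2.03 (n = 4) at day 3, followed by day 0 with -0.80 ± 0.38 (n = 2). Between these neighbours only the step from YFP-positive day 3 to day 0 was larger than the greater SD of the pair. For Cldn2, Cldn6, Cldn5, Cldn11 and Cldn12 no step between neighbours exceeded the greater SD of the pair. Cldn1 had YFP-positive day 14 (0.20 ± 0.50, n = 2) and YFP-negative day 7 (-0.02 ± 0.97, n = 3) on top, within their spread, and a larger step to YFP-positive day 7 (-1.66 ± 0.97, n = 3). Day 0 led for Cldn8 (-1.92 ± 0.78, n = 2), Cldn5 (3.11 ± 0.43, n = 2) and Cldn11 (-2.40 ± 0.17, n = 2).

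The next comparisons set each sorted group against day 0 and asked how claudins stood relative to the uninjured liver. All 6 share the same 2 day 0 arrays, and no member passed in any of them. Over all genes the median was below 0 in each: -0.17, -0.34 and -0.23 for YFP-positive cells of days 3, 7 and 14, and -0.38, -0.34 and -0.39 for YFP-negative cells. In the same order the members' medians were 0.97, 1.56 and 2.63, and -0.82, -0.79 and -0.25. Above 0 stood 7, 6 and 7 members, and 2, 2 and 3, against 41.6%, 36.6% and 41.1%, and 33.2%, 36.0% and 35.6% of all genes. The shares of all genes called were 0.0525%, 0.0338% and 0.146% for YFP-positive cells of days 3, 7 and 14, and 0.045%, 0.0488% and 0.0338% for YFP-negative cells. At an unadjusted p under 0.05 stood 0, 1 and 4 members for YFP-positive cells (background 10.2%, 11.5% and 11.4%) and 0, 1 and 0 for YFP-negative cells (background 6.38%, 8.59% and 11.5%). The smallest p-values were those of Cldn11 and Cldn7 in YFP-positive cells at day 3, with -1.42 ± 0.69 and 2.36 ± 1.31 (adjusted p = 0.504 and 0.55). The same genes led at day 7, with -1.96 ± 0.73 and 2.85 ± 1.38 (adjusted p = 0.331 and 0.448). At day 14 Cldn4 stood 5.09 ± 1.59 and Cldn1 3.95 ± 1.29 from day 0 (adjusted p = 0.229 and 0.255), and for both genes the 2 arrays of day 14 were above the 2 of day 0.

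In YFP-negative cells Cldn8 was lower than at day 0 by values of -4.18 ± 2.06 at day 3, -4.11 ± 2.06 at day 7 and -3.12 ± 2.06 at day 14 (adjusted p = 0.763, 0.585 and 0.555). Without the day 3 array below background the first of these was -2.23, and without that of day 7 the second was -2.31. Cldn11 stood at -1.27 ± 0.73 at day 3 (adjusted p = 0.763). Cldn1 stood 3.73 ± 1.18 above day 0 at day 7 (adjusted p = 0.417) and 0.82 ± 1.18 at day 14 (adjusted p = 0.819). Arrays did not overlap those of day 0 for 1 member at YFP-positive day 3, Cldn11, lower (background 13% of genes lower and 7.39% higher). At YFP-positive day 7 this held for 7 members, 5 higher (background 11.5%) and 2 lower (25.3%), and at YFP-positive day 14 for 7, all higher (background 18%, with 28.6% lower). In YFP-negative cells it held at day 3 for 3 members, Cldn4, Cldn8 and Cldn11, all lower (background 24.9% lower and 10.2% higher), at day 7 for 8 members, 2 higher (background 10.4%) and 6 lower (22.2%), and at day 14 for 0 members (background 13.1% higher and 29.3% lower).

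The authors' deposited table gives its own fold changes against day 0, by a method not given in the sources used here and possibly over samples not analysed here. For YFP-positive day 14 the authors' deposited table lists Cldn4 at 42.6-fold, Cldn1 (the brighter probe) at 18.2-fold, Cldn2 at 17.9-fold, Cldn7 at 12.0-fold, Cldn3 at 8.14-fold and Cldn6 at 7.25-fold, with false discovery rates of 0%, 0.74%, 0.72%, 0%, 0% and 0.74%. The lower probe with a rate under 5% in the authors' deposited table is that of Cldn5, with a signed fold of -4.61 (3.73%). Among the 11 claudin probes of the authors' deposited table, 7 have a rate under 5% in that comparison, 6 higher and 1 lower. At YFP-positive day 7 the authors' deposited table has 4 such probes higher (Cldn2, Cldn4, Cldn6 and Cldn7) and 1 lower (Cldn11), and at YFP-negative day 7 it has 2 higher, both of Cldn1. For YFP-positive day 3 and YFP-negative days 3 and 14 the authors' deposited table has 0 such probes. The fit here gave Cldn4 34.0-fold and Cldn7 9.39-fold at YFP-positive day 14, with neither past the threshold.

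Changes over time within a fraction gave no claudin past the threshold. From day 3 to day 14, 2 of 10 members stood at an unadjusted p under 0.05 in YFP-positive cells (6.34% of genes, with 0.0263% called after adjustment) and 0 in YFP-negative cells (3.71% and 0%). Cldn1 in YFP-positive cells was 3.55 ± 1.12 higher at day 14 (adjusted p = 0.527; 1.11 with both Cldn1 probes averaged), with the 2 day 14 arrays above all 4 day 3 arrays. Cldn4 was 3.04 ± 1.38 higher (adjusted p = 0.753), likewise without overlap (background 5.17%). In YFP-negative cells the smallest p-values belonged to Cldn11 (1.19 ± 0.65) and Cldn4 (1.72 ± 1.30), both with an adjusted p of 1. The difference of these changes between the fractions passed for no member and for 0% of genes, with Cldn1 (above) and Cldn4 (1.32 ± 1.89, adjusted p = 1) first. A test for any difference among the 7 groups called 0.03% of genes and no claudin, with 4 members at an unadjusted p under 0.05 (background 11.3%). Cldn7 and Cldn1 had the largest F values there (4.15 and 3.93, adjusted p = 0.347 and 0.352).

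The levels of 5 of the 10 claudins correlated with the biliary marker mean within each fraction. Over the 9 YFP-negative and the 9 YFP-positive arrays, Pearson's r with the biliary marker mean was 0.96 and 0.97 for Cldn7, 0.94 and 0.96 for Cldn2, 0.95 and 0.96 for Cldn6, 0.94 and 0.90 for Cldn8, and 0.83 and 0.96 for Cldn3. The other members had lower values in at least 1 fraction: 0.42 and 0.52 for Cldn4, 0.07 and 0.78 for Cldn12, 0.24 and -0.14 for Cldn11, -0.21 and -0.69 for Cldn5, and -0.37 and 0.04 for Cldn1. In Cldn7, Cldn2, Cldn6 and Cldn3, YFP-positive day 3 array 3 fell within the range of the YFP-negative arrays, and it was low for Cldn4 as well. YFP-negative day 14 array 3 was the highest of its fraction for these genes and for Cldn4. In Cldn7 (0.97), Cldn6 (1.97) and Cldn3 (-0.29) it still lay below every YFP-positive array but day 3 array 3. In Cldn2 (2.40) it was above YFP-positive day 7 array 3 (1.82) too. YFP-negative day 3 array 3 stood at 0.21 for Cldn7, 1.27 for Cldn2, 1.58 for Cldn6 and -0.50 for Cldn3. For Cldn4 that array went the other way and was the lowest of all (-4.73). Values of 1 array share their amplification, labelling and scan, the arrays span 3 days, and these correlations are descriptions of 9 points each. No difference at equal biliary content was tested.

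**Figure D3:**
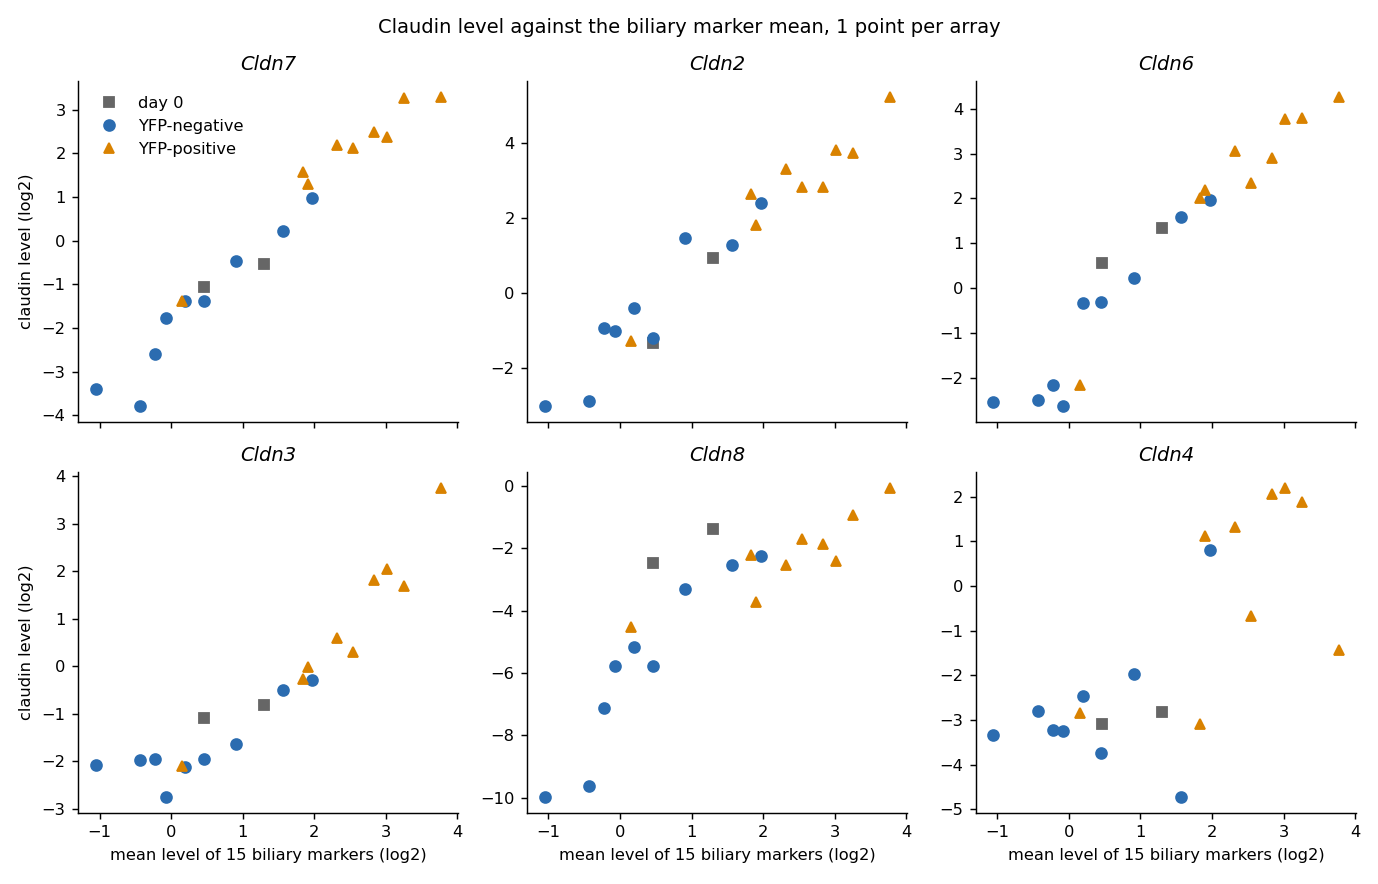
Level of 6 claudins on each array (log2, y axis) against the mean level of 15 biliary markers on the same array (log2, x axis), 1 point per array, with day 0 as squares, YFP-negative as circles and YFP-positive as triangles. For Cldn7, Cldn2, Cldn6, Cldn3 and Cldn8 the fractions lie along 1 band (r of 0.83 to 0.97 within fractions), whereas Cldn4 scatters, with -1.44 on the array with the highest biliary mean of 3.77.

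Among themselves the claudins fell into a close set and several loose genes. Pairs of Cldn7, Cldn2, Cldn6, Cldn3 and Cldn8 had r of 0.65 to 0.98 in YFP-negative and 0.80 to 0.98 in YFP-positive cells (9 arrays each). The neighbours Cldn3 and Cldn4 had r of 0.38 and 0.45. Cldn5 ran against the set in YFP-positive cells, with r of -0.78 to -0.64, and not in YFP-negative cells, with -0.23 to -0.09; that contrast was not tested. Cldn12 moved with Cldn3 in YFP-positive cells (r = 0.85) and not in YFP-negative cells (r = -0.17), and Cldn1 had r of -0.59 (with Cldn3) to 0.28 (with Cldn4) with the other claudins.

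**Figure D4:**
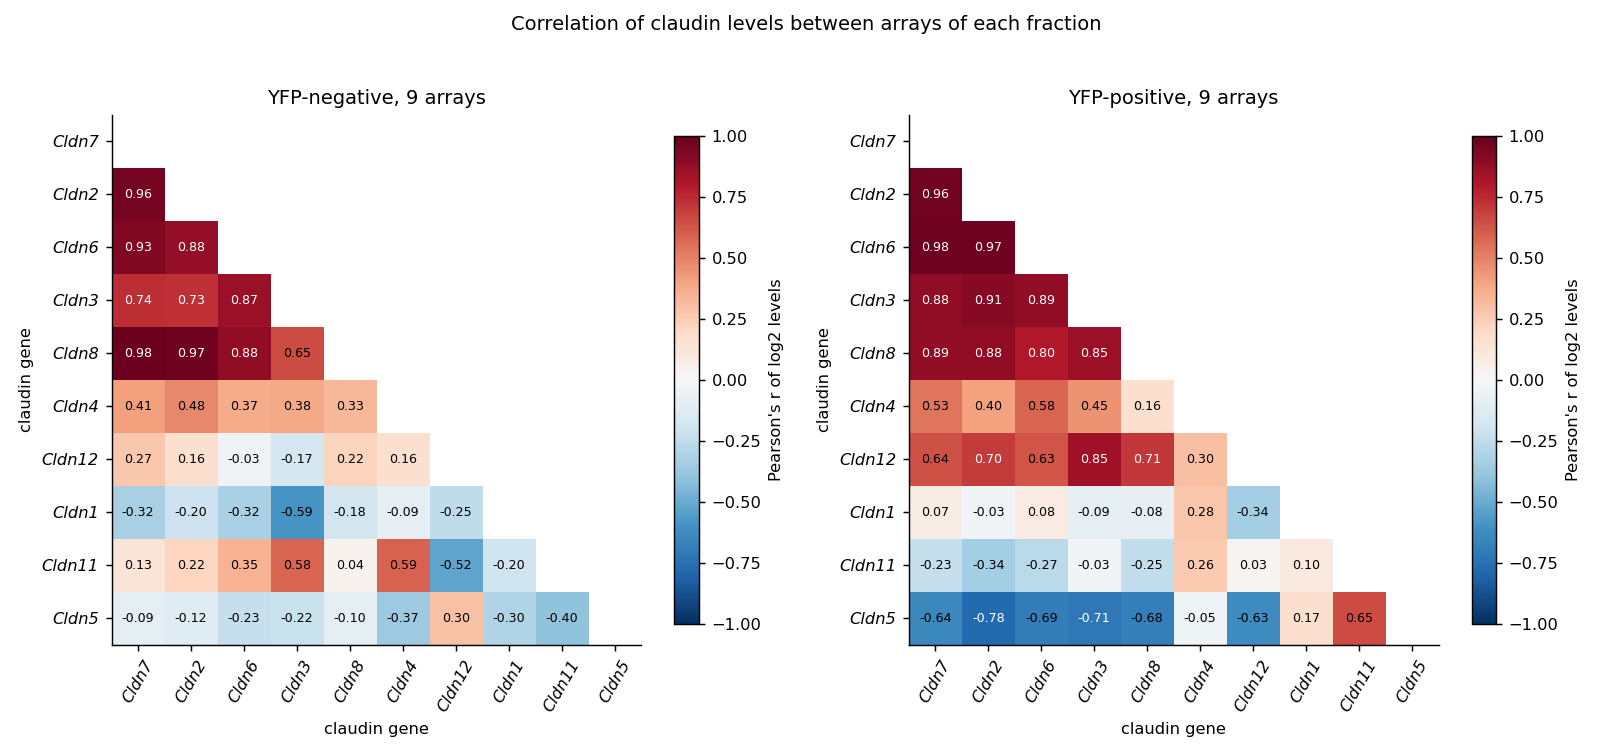
Pearson's r between the log2 levels of claudin pairs over the 9 YFP-negative arrays (left) and the 9 YFP-positive arrays (right), on a colour scale from -1 to 1. The block of Cldn7, Cldn2, Cldn6, Cldn3 and Cldn8 has values of 0.65 or more on both sides, and Cldn4 has 0.59 at most with any claudin.

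The genes most like each member across all 20 arrays were found by the highest r among genes matched to a RefSeq name. Left out were the 8016 unmatched genes, clone or predicted-gene identifiers and genes with a missing value. For Cldn7 the closest were Epcam (r = 0.98), whose protein binds claudin 7, Foxj1 (0.98), the transcription factor of motile cilia, and Sftpd (0.98), a surfactant protein. Epcam led for Cldn2 too (0.97), followed by Cep170b and Cldn7 (0.97 each). Cldn6 was closest to Dcdc2a, Capsl and Krt23 (0.98, 0.98 and 0.97), and Cldn8 to the potassium channel gene Kcnk1 (0.97), Prom1 and the fibrocystin gene Pkhd1 (0.93 and 0.92). For Cldn3 they were Lamb3, Ehf and Lad1 (0.95, 0.94 and 0.94), where Lamb3 encodes a laminin chain and Ehf an epithelial transcription factor. Cldn5 was closest to Chst7, Oit3 and Chst14 (0.95, 0.94 and 0.94), and Cldn1 to Apom and Gcdh (0.81 and 0.79), of which Apom encodes an apolipoprotein. For the other members the genes were Tmem130, Pip4k2c and Ptprd for Cldn4 (0.85, 0.85 and 0.84), Psma3, Fads2 and Bex3 for Cldn12 (0.89, 0.89 and 0.83), and Erp27, Tslp and Olfr832 for Cldn11 (0.77, 0.76 and 0.76). With 20 arrays and so many genes searched, high values of r are to be found for any gene, and the arrays share their groups.

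Other claudins and junction genes gave the setting. Of 14 other claudins 11 were measured, and over the mean of days 10 were higher in YFP-positive cells and none passed, with a median of 0.88. The first of the list, Cldn9, is described above. Of 29 other tight junction genes 23 were above 0, with a median of 1.26, and 1 passed, Ildr1, a protein of tricellular contacts, with 3.81 ± 0.74 (adjusted p = 0.0348). Occludin, Ocln, a further strand protein of the junction, differed by 2.73 ± 0.77 (adjusted p = 0.087). Epcam is in this list and among the biliary markers. Of 20 regulators of epithelial or mesenchymal state 19 were measured, 11 were above 0, with a median of 0.29, and 1 passed, the epithelial factor Ehf with 2.59 ± 0.52 (adjusted p = 0.0364). Grhl1, a Grainyhead factor, differed by 1.46 ± 0.46 (adjusted p = 0.105). At an unadjusted p under 0.05 stood 6 other claudins, 17 tight junction genes and 8 regulators above 0, and 1, 1 and 2 below. Of all genes 21.4% reached that p in either direction and 52.9% were above 0. No gene of the 3 lists passed at a single day. Without YFP-positive day 3 array 3 the counts over the mean of days were 2 other claudins, 14 tight junction genes and 6 regulators higher and 1 regulator lower, where 736 of all 26647 genes were called higher and 482 lower.

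How far the calls depend on the processing was plotted for the 5 claudins that passed in at least 1 setting. Cldn7 passed in the main setting, with quantile normalization (adjusted p = 0.0306) and under each of 3 other choices of probes. It missed the threshold with normexp background correction (0.055), with the slide as a random block (0.0505), with it fixed (0.479), with the replicate block (0.104), from days 7 and 14 alone (0.135) and in the fit of only the groups compared (0.0583). Its difference kept its sign and ran from 3.17 to 3.88 over these settings.

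**Figure D5:**
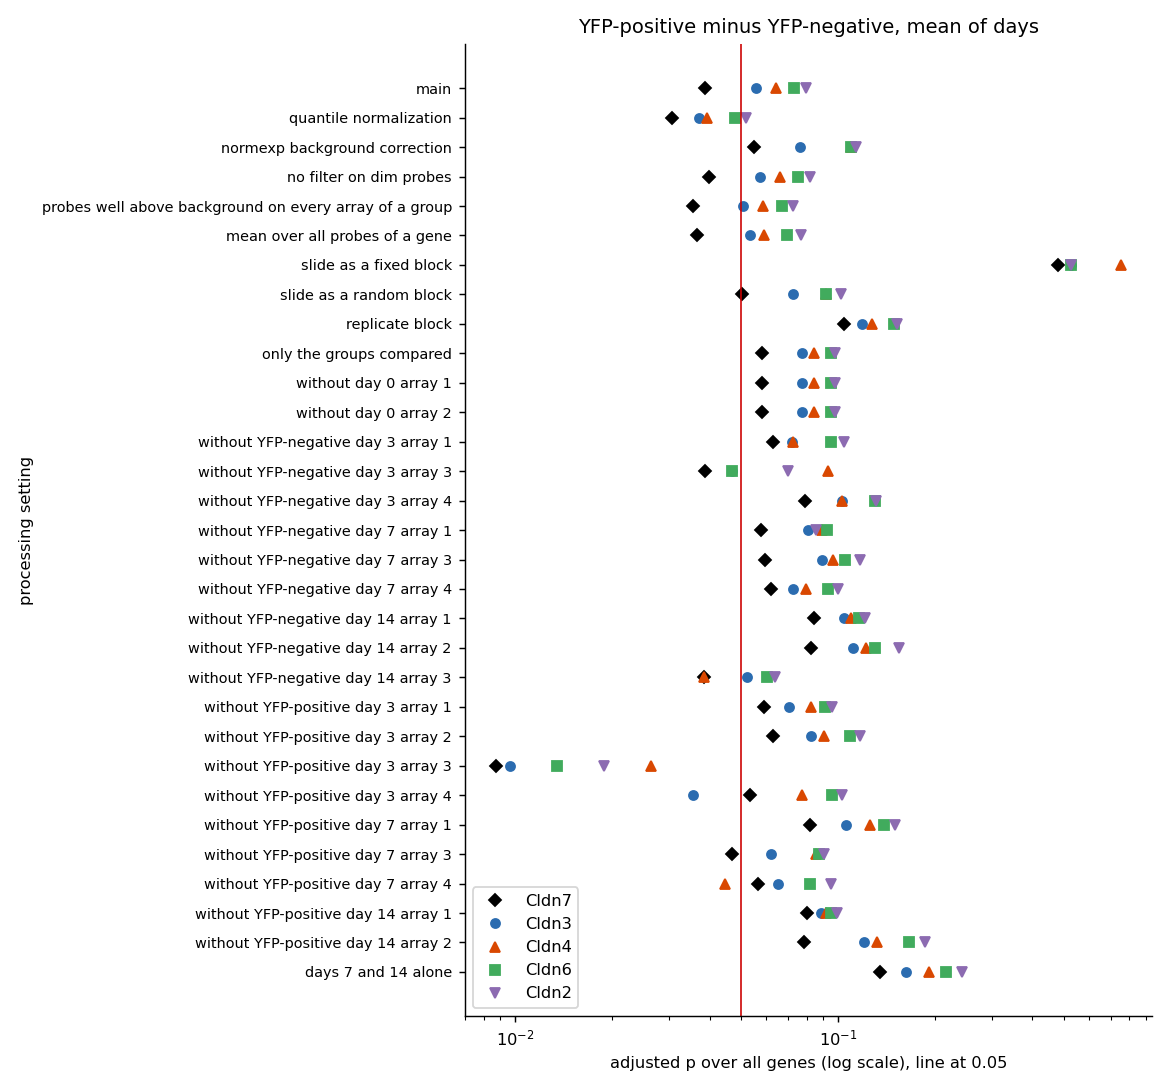
Adjusted p over all genes (log scale, x axis) of the difference between YFP-positive and YFP-negative cells over the mean of days, for 5 claudins under the main setting and each alternative, with a line at 0.05. Points of Cldn7 lie between 0.00871, without YFP-positive day 3 array 3, and 0.479, with a fixed slide block, and all 5 genes are left of the line only without YFP-positive day 3 array 3.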

How the data were processed

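Agilent 1-colour arrays of design 014868 were read for 20 of 26 samples; the others were not analysed here. Per the labels, amplified cDNA was labelled with Cy3. The values are the authors' deposited scanner outputs: the processed signal is an intensity, background-subtracted but with no scaling across arrays; per the file headers the software was Feature Extraction 10.5.1.1 (the submitters' processing notes name Agilent Feature Extraction 9.53). The authors' deposited series table holds signed fold changes, kept here as a score, and false discovery rates in percent.

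Control spots were left out, leaving 43379 spots an array, outlier spots were dropped, spots of 1 probe were averaged (41174 probes), and log2 signals had the array's 75th percentile subtracted. Probes had to exceed background clearly on 2 or more arrays (39591 did), and the brightest stood for each of 26647 genes (8646 had several). The share of spots that exceeded background was 89.9 and 91.2% at day 0 and 81.0 to 88.3% on sorted-cell arrays; the number of arrays limits the precision. The 7 groups were fitted together with limma 3.58.1 in R 4.3.3 (13 residual and 2.31 prior degrees of freedom), with Benjamini-Hochberg adjustment and a threshold of 0.05. On simulated data the mean of days recovered 60, 84, 88 and 94% of changes of log2 2, 3, 4 and 5 among 26370 genes. The simulated noise was independent between genes and arrays, and each change was the same on every YFP-positive array. It held no slide effect, no shift shared between genes and no array like the other fraction, so these shares need not hold for the claudins. By rule, differences between the fractions were given for every member, and in other comparisons for members that passed or the 2 with the smallest p; of other lists, members that passed and the first. Likeness is Pearson's r over 20 arrays, with the 3 highest genes named for each member; 1 of them is not reported here. Members and lists were chosen with earlier results of these data known. Names and promoters follow RefSeq on GRCm38.p6 (16246 genes matched by accession, 2385 by symbol, 8016 unmatched). Alternatives were quantile normalization, normexp (offset 50), other probe rules, slide or replicate as block, fewer groups and leaving out each array.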

Additional observations from a re-analysis of the deposited data

Results flagged for a closer look

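Cldn3 at day 7 was flagged because every YFP-positive array lay above both day 0 arrays and every YFP-negative array below both, with a difference between the fractions of 2.38 (adjusted p = 0.886, limma). Cldn6 at day 7 was flagged for the same reason, with a difference of 3.52 (adjusted p = 0.854). The difference between the fractions was tested for both and did not pass. In the only group of 4 arrays, YFP-positive day 3, the gap of the lowest or highest array over the range was below Dixon's 95% critical value for each of the 10 claudins, although array 3 was the lowest of the 4 for Cldn2, Cldn3, Cldn4, Cldn6, Cldn7 and Cldn8.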

How the results depend on the processing

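Over the mean of days the count of claudins that passed was 1. It was 4 with quantile normalization (Cldn3, Cldn4, Cldn6 and Cldn7), and 0 with normexp background correction, with the slide as a fixed or random block, with the replicate block, in the fit of only the groups compared, and from days 7 and 14 alone. It was 1 with no filter on dim probes, with the filter by group and with the mean over probes. Leaving out 1 array gave 0 to 5: 5 without YFP-positive day 3 array 3 (Cldn2, Cldn3, Cldn4, Cldn6 and Cldn7), 3 without YFP-negative day 3 array 3, 2 without YFP-negative day 14 array 3, 1 in 3 fits (without YFP-positive day 3 array 4, Cldn3; day 7 array 3, Cldn7; day 7 array 4, Cldn4), and 0 in the other 14. In the other 13 comparisons the count was 0 in each setting run. Of all genes, 54 were called higher and 114 lower in the main setting, 813 and 312 with quantile normalization, and 7 and 36 with normexp. Calls over all genes changed with the left-out array too. The fit with 5 claudins called 736 genes higher and 482 lower. The fit with 3 claudins called 166 and 123, and the fit with 2 called 116 and 103. In the 14 fits with 0 claudins, 2 to 38 genes were called higher. The cause was not tested.

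Residuals of same-numbered arrays of different groups had a median r of 0.0047 over 43 pairs, against -0.00399 over 127 pairs of other numbers. Of 20 arrays, 6 correlated best with an array of their own number. These pairs mix groups and days, so they cannot show whether the fractions of the same day came from the same animals. Such pairing was not tested. The main fit treated all arrays as independent, and the replicate block gave Cldn7 3.54 (limma, adjusted p = 0.104). Differences between the fractions that changed sign had main values from -0.53 (Cldn1 at day 3) to 0.68 (Cldn12 in the mean of days). They were Cldn12 with the slide as a fixed block (-0.48 in the mean of days, -1.28 at day 3, -0.32 at day 7), Cldn1 with the mean over probes (-0.47 in the mean of days, 0.64 at day 3) and with the slide as a fixed block at day 3 (0.95), and Cldn11 at day 3 with the replicate block (0.10). Leaving out 1 array gave ranges across 0 at day 3 for Cldn1 (-1.47 to 0.14), Cldn12 (-0.59 to 1.06) and Cldn11 (-0.78 to 0.27), at day 7 for Cldn12 (-0.53 to 1.20) and Cldn5 (-0.32 to 0.91), at day 14 for Cldn5 (-2.47 to 0.18) and Cldn11 (-1.60 to 0.21), and for Cldn1 in YFP-negative day 14 against day 0 (-0.30 to 1.94). The cause was not tested.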
